A study of Mus musculus with 6 samples.

Results

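The genes described here are 46 genes of the unfolded protein response and the integrated stress response chosen by gene name, without a threshold on any value. Each of the 46 had 1 row in a table of 13962 genes, and all 46 passed the filter on low counts that left 13192 genes to test. The RNA came from beige adipocytes of C57BL/6 mice, grown from inguinal white fat preadipocytes that had been immortalized with the large T antigen. Beige adipocytes arise in white fat depots and can be induced to burn fuel for heat, as brown fat does. All cells carried floxed Tle3 alleles and the tamoxifen-activated recombinase CreERT2 (TLE3F/F CreERT2), and Tle3 encodes a Groucho-type protein that helps transcription factors repress their targets. On day 4 of differentiation 1 group received 4-hydroxytamoxifen (500 nM) and the other ethanol, each for 24 hours. Both groups were kept in insulin (20 nM), T3 (1 nM) and rosiglitazone (1 uM), an agonist of PPARgamma, after 2 days of an inducing cocktail that also held isobutylmethylxanthine (0.5 mM), dexamethasone (0.5 uM) and indomethacin (0.125 mM), and were harvested on day 10. There were 3 libraries labelled TLE3 knockout and 3 control libraries. The labels give neither the promoter behind CreERT2 nor the number of animals or clones behind the line, and no tamoxifen-treated cells without CreERT2 are among these samples, so what tamoxifen or active Cre does by itself cannot be told apart from the loss of TLE3.

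Total counts were 14606228 to 15933996 in the labelled-knockout libraries and 14832434 to 19294632 in the control libraries. The count of Tle3 itself went against the label, at 287, 289 and 294 CPM, which are counts scaled to the library's size, in the labelled-knockout libraries, against 151, 151 and 152 CPM in the control libraries. These counts cover the whole gene and do not single out the floxed exons, so they cannot check the deletion, and every direction below is that of the libraries as labelled. Of 14 adipocyte markers, 7 rose and 0 fell, where 6.91% of all tested genes rose and 5.44% fell. An unadjusted p under 0.05 by edgeR was found for 13 of the 14, in either direction, against 27.9% of all tested genes. The log2 fold change was above 0 for 12 of the 14 and below 0 for 2, Lpl (−0.16) and Cfd (−0.17). The summed level of the 14 was 14491 to 16362 CPM in the labelled-knockout libraries and 12354 to 14736 CPM in the control libraries. Of 14 fibroblast and preadipocyte markers 2 rose and 4 fell, with sums of 15832 to 16347 CPM and 15481 to 17850 CPM in the same order. Of 10 thermogenic markers 7 rose and 1 fell, with sums of 1146 to 1331 CPM in the labelled-knockout libraries and 695 to 848 CPM in the control libraries. Control 3 had the lowest adipocyte sum and the highest fibroblast sum of the 6 libraries. Part of the differences below may move with these markers, and their part in them was not tested. In bulk RNA, fewer cells of a type and less RNA per cell cannot be told apart. Macrophage markers (4 of 8 names matched) summed to 6.70 to 8.16 CPM in the labelled-knockout libraries and 5.48 to 7.40 CPM in the control libraries, and endothelial markers (3 of 6 matched) to 3.04 to 3.55 CPM and 1.96 to 3.52 CPM. Nothing in the labels says that the 3 libraries of a group came from separate cultures, so each p-value sets a difference against a spread that may be no more than technical.

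The unfolded protein response is set off when unfolded proteins gather in the endoplasmic reticulum (ER). Its sensors are the kinase PERK, the nuclease IRE1, which splices Xbp1 mRNA into the form that encodes an active factor, and ATF6, which is cut from the membrane to become a factor itself. PERK is also an arm of the integrated stress response, in which several kinases phosphorylate eIF2alpha, general translation falls, and ATF4, ATF5 and CHOP are made and turn on genes of amino acid synthesis, redox control and cell death. Secretory cells such as adipocytes rely on ER folding capacity. Much of the control acts on splicing, translation or cleavage, which counts per gene do not measure.

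Few of the 46 genes changed in the labelled-knockout libraries. Atf5 and Mthfd2 rose, and Ern1, Xbp1 and Psat1 fell, by edgeR's quasi-likelihood test with an adjusted p under 0.05 over all tested genes. The share of members that rose was 4.35% and that of members that fell 6.52%, against 6.91% and 5.44% of all tested genes, so the shares of called members lay near those of all genes (12.3% called in either direction). The fold changes were small. The median log2 fold change of the 46 was −0.05, with a range from −0.34 to 0.22, and the median size was 0.07, against −0.00 and 0.11 over all tested genes. For 41 of the 46 the 95% interval of the log2 fold change lay within ±0.32, as it did for 56.3% of all tested genes. The members were well covered, with a median of 108 CPM and, Gdf15 apart, at least 184 counts in every library. Their spread between libraries was also lower, with a median coefficient of variation of 2.51% in the labelled-knockout libraries and 3.48% in the controls, against 5.34% and 6.01% over all tested genes. Leaving out labelled-knockout 3 left 0 members that rose and 0 that fell, where 332 and 289 genes rose and fell over the whole table, and leaving out any other library left 1 that rose and 1 to 3 that fell.

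**Figure D1:**
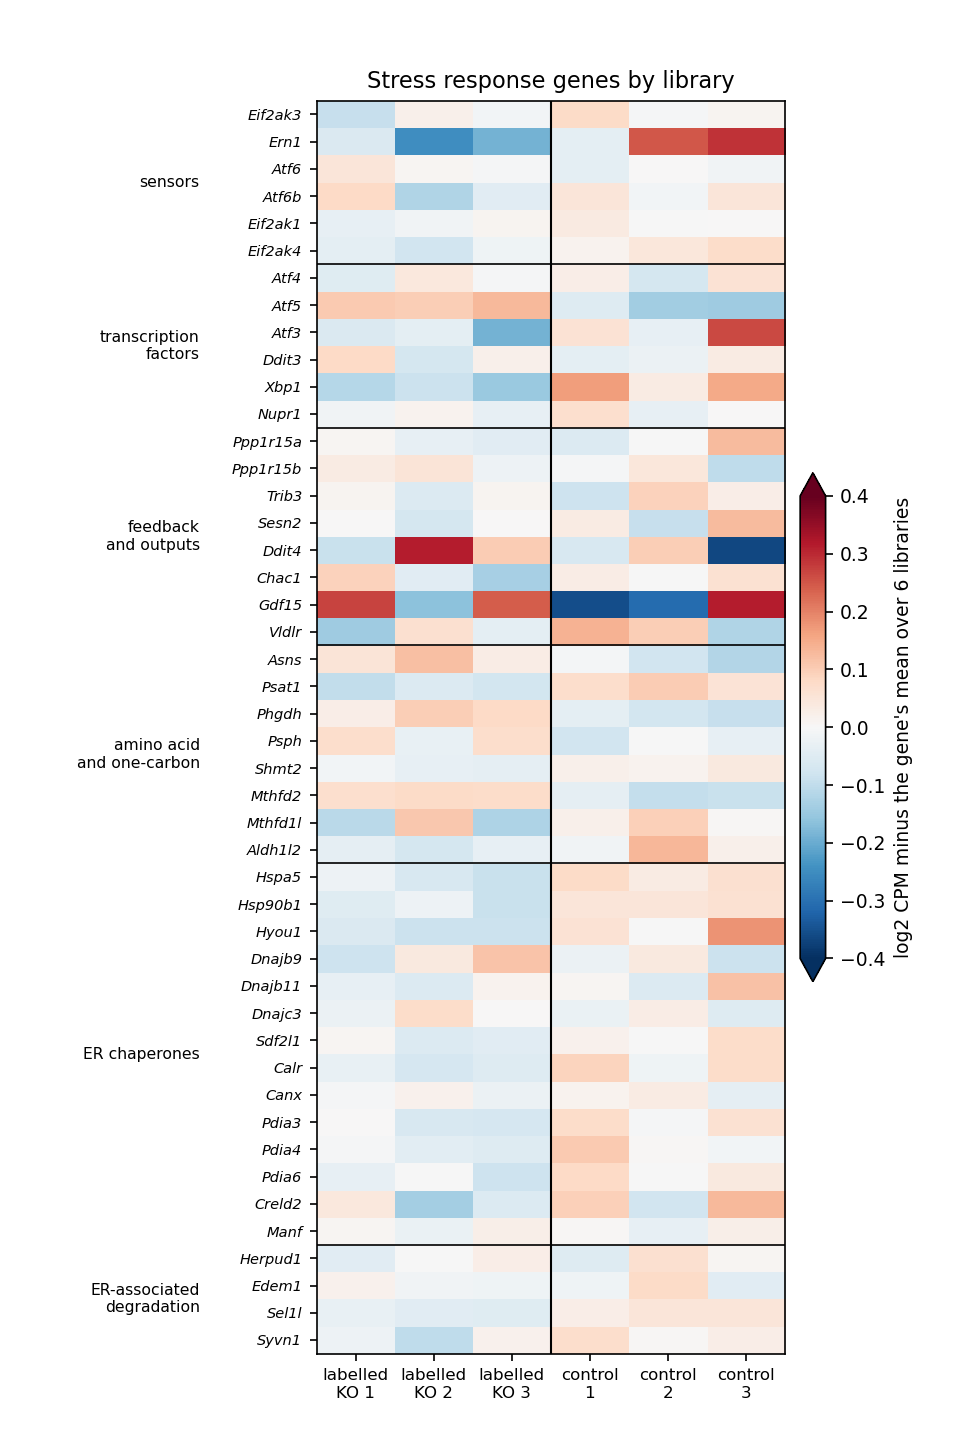
Level of each of the 46 members in each library, as log2 CPM minus the gene's mean over the 6 libraries (colour), with the labelled-knockout libraries left of the controls and genes grouped by role. Most cells lie close to 0; Ern1 and Xbp1 are lower and Atf5 higher in the labelled-knockout libraries, while Ddit4 and Gdf15 vary within both groups.

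More members lay a little lower than a little higher. The log2 fold change was below 0 for 33 of 46 members (71.7%), against 50.6% of all tested genes. The libraries of the groups did not overlap for 17 members. The labelled-knockout libraries were all lower for 13 of these (28.3% of the members, against 15.8% of all tested genes) and all higher for 4 (8.70%, against 16.0%). A gene whose libraries vary little separates at a smaller difference, and the part that the low spread of these genes has in the counts was not tested.

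Among the sensors, the transcript of IRE1 alone passed the test. Ern1, which encodes IRE1alpha, was at 55.1, 48.3 and 50.3 CPM in the labelled-knockout libraries and at 55.8, 68.2 and 70.1 CPM in the control libraries. The groups did not overlap, but control 1 lay within 1 CPM of labelled-knockout 1. The means were 51.2 ± 3.53 and 64.7 ± 7.74 CPM (SD, n = 3 each), which put log2 of the ratio at −0.34 with an SE of 0.0832 (95% interval −0.52 to −0.15, adjusted p 0.0245 by edgeR). The call was lost without labelled-knockout 2 (adjusted p 0.0883), labelled-knockout 3 (0.104), control 2 (0.0522) or control 3 (0.0759). Control 3, where Ern1 was highest, is also the library with the lowest adipocyte and highest fibroblast sum. Control 2, next highest in Ern1, had the highest adipocyte sum (14736 CPM) and the lowest fibroblast sum (15481 CPM) of the controls. Whether Ern1 moves with these markers was not tested.

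The other sensors differed by little. Eif2ak3, the gene of PERK, was at 39.4, 42.6 and 41.7 CPM in the labelled-knockout libraries and at 44.3, 41.8 and 42.3 CPM in the controls, and the groups overlapped (log2 −0.06, interval −0.17 to 0.06, adjusted p 0.534). Atf6 was at 171, 166 and 165 CPM in the labelled-knockout libraries, against 161, 166 and 164 CPM in the controls (log2 0.04, interval −0.05 to 0.12, adjusted p 0.608). Both 95% intervals lay within ±0.32 on the log2 scale. Atf6b, the ATF6 paralog, averaged 46.6 ± 3.30 and 48.4 ± 1.16 CPM in labelled-knockout and control libraries (adjusted p 0.567). Eif2ak1, the gene of the heme-regulated eIF2alpha kinase HRI, averaged 89.4 ± 1.39 and 90.9 ± 1.35 CPM (adjusted p 0.764). Eif2ak4, the gene of GCN2, the kinase that senses uncharged tRNA, averaged 48.9 ± 0.999 and 52.0 ± 1.06 CPM; its groups did not overlap, and its log2 fold change of −0.09 did not pass (adjusted p 0.234).

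Of the transcription factors, Xbp1 fell and Atf5 rose while Atf4 and Ddit3 overlapped between the groups. Xbp1, whose spliced product drives ER chaperone and degradation genes, was at 55.4, 56.6 and 54.2 CPM in the labelled-knockout libraries and at 67.4, 61.5 and 66.7 CPM in the control libraries, with no overlap. The means were 55.4 ± 1.19 and 65.2 ± 3.24 CPM, which put log2 of the ratio at −0.24 (95% interval −0.35 to −0.13, adjusted p 0.0120 by edgeR), and the call was lost without labelled-knockout 3 (adjusted p 0.0694) or control 1 (0.0560). The counts do not separate spliced from unspliced Xbp1. Atf5, a factor made under eIF2alpha phosphorylation that has been tied in mammalian cells to mitochondrial chaperone genes, was at 311, 310.1 and 317 CPM in the labelled-knockout libraries, against 279, 263 and 262 CPM in the control libraries. All 3 labelled-knockout values lay above all 3 control values. Atf5 rose by 0.22 on the log2 scale (SE 0.0415, 95% interval 0.13 to 0.31, adjusted p 0.00717), and the call was lost without labelled-knockout 3 (adjusted p 0.0506). Exons of Atf5 overlap those of Nup62 and Il4i1 on the other strand in GENCODE M21, and the strand setting of the counting is not given, so part of the Atf5 count could be theirs. Nup62 was at 80.1 ± 2.56 CPM in the labelled-knockout libraries and 86.5 ± 2.56 CPM in the controls (log2 −0.11, adjusted p 0.140), and Il4i1 at 1.16 ± 0.0738 and 1.09 ± 0.0805 CPM, so neither was higher beyond its spread.

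Atf4, the central factor of the integrated stress response, was at 303, 322 and 312 CPM in the labelled-knockout libraries and at 318, 298 and 326 CPM in the controls. The ranges overlapped, and the interval of the log2 fold change ran from −0.11 to 0.09 (adjusted p 0.921). Ddit3, which encodes the factor CHOP, was at 162, 146 and 156 CPM in the labelled-knockout libraries, against 149, 151 and 157 CPM in the controls (log2 0.02, interval −0.08 to 0.13, adjusted p 0.812). Part of the Ddit3 exons overlap those of Mars on the other strand. Atf3, a stress-induced repressor and activator, averaged 15.4 ± 0.857 and 17.6 ± 1.89 CPM; its groups did not overlap, and the log2 fold change of −0.20 had an interval of −0.40 to 0.00 (adjusted p 0.184). Nupr1, a small nuclear stress protein, averaged 50.7 ± 0.8501 and 51.6 ± 1.82 CPM in labelled-knockout and control libraries (adjusted p 0.785).

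**Figure D2:**
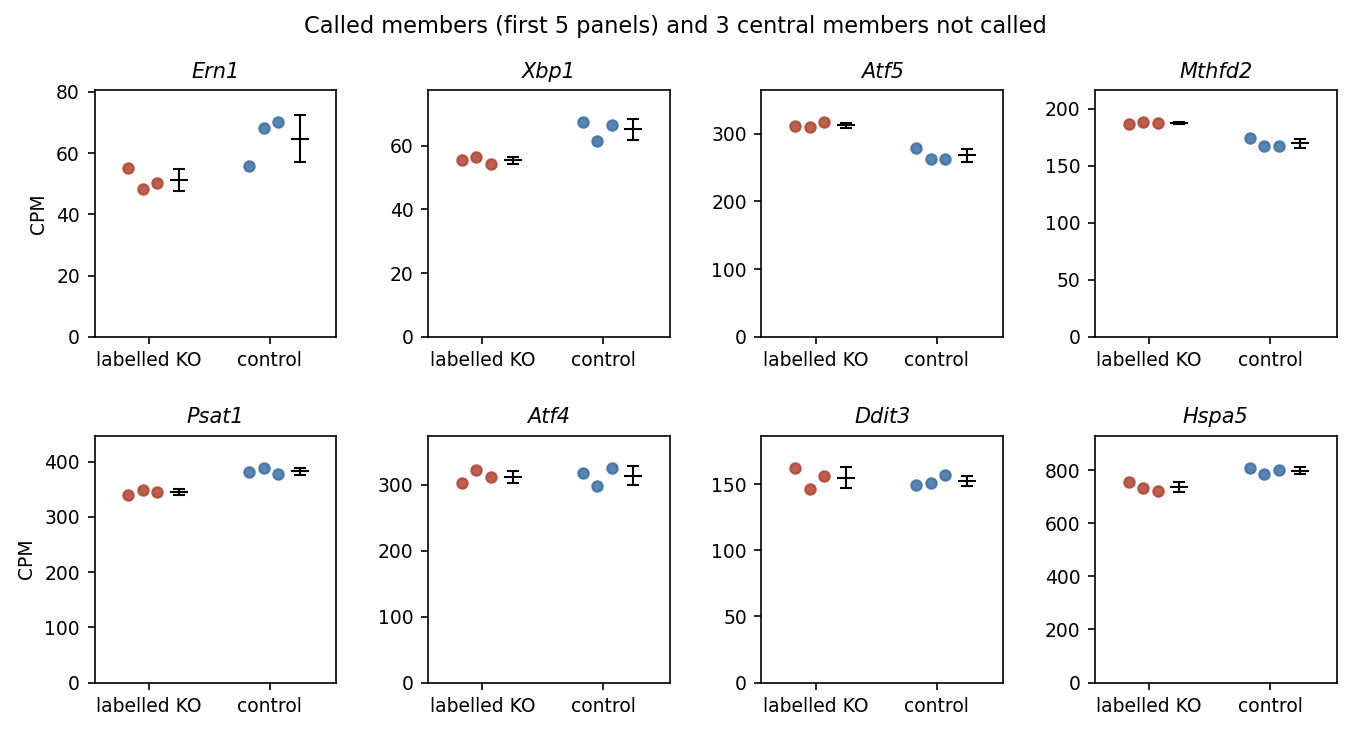
CPM in each library (points) with mean and SD (bars beside them), labelled-knockout libraries left of controls, for the 5 members that were called and for Atf4, Ddit3 and Hspa5, which were not; each axis starts at 0. The called members differ by 0.793-fold (Ern1) to 1.17-fold (Atf5), and the points of Atf4 and Ddit3 overlap between groups.

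None of the 8 feedback regulators and stress outputs was called by edgeR, DESeq2 or limma-voom, where edgeR called 12.3% of all tested genes. With edgeR 0 of the 8 had an unadjusted p under 0.05, against 27.9% of all tested genes. Trib3, a pseudokinase that restrains ATF4 and CHOP, was at 123, 117 and 123 CPM in the labelled-knockout libraries, against 115, 129.6 and 124 CPM in the controls. The groups overlapped, and the log2 interval ran from −0.13 to 0.09 (adjusted p 0.824). Ppp1r15a, the stress-induced subunit that leads a phosphatase to eIF2alpha, averaged 50.04 ± 0.966 CPM in the labelled-knockout libraries and 51.8 ± 3.42 CPM in the controls (log2 −0.05), and its constitutive relative Ppp1r15b 273 ± 7.01 and 266 ± 13.7 CPM (log2 0.04). Sesn2, a leucine-sensing inhibitor of mTORC1, averaged 57.7 ± 1.62 and 59.6 ± 4.47 CPM in the same order (log2 −0.05). Chac1, which breaks down glutathione, averaged 29.4 ± 2.33 CPM in the labelled-knockout libraries and 30.5 ± 0.670 CPM in the controls (log2 −0.06), and the lipoprotein receptor gene Vldlr 79.8 ± 5.73 and 84.3 ± 7.97 CPM (log2 −0.08). All 5 were far from the threshold (adjusted p 0.532 to 0.645).

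Ddit4 and Gdf15 varied most between libraries of 1 group. Ddit4, an mTORC1 inhibitor also induced by glucocorticoids, was at 163, 215 and 186 CPM in the labelled-knockout libraries and at 166, 185 and 134 CPM in the controls. The groups overlapped, labelled-knockout 2 was highest and control 3 lowest, and the interval of the log2 fold change was wide, −0.03 to 0.47 (adjusted p 0.242). Gdf15, a secreted stress hormone, had the lowest mean CPM of the members. It was at 5.05, 3.73 and 4.96 CPM in the labelled-knockout libraries and at 3.27, 3.38 and 5.21 CPM in the controls, from 50 to 102 counts per library. Its log2 interval of −0.25 to 0.64 is the widest among the members and holds differences of either sign (adjusted p 0.575). Ern1, Atf3, Ddit4 and Gdf15 were the 4 members with a coefficient of variation above 10% in a group.

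Enzymes of asparagine, serine and folate metabolism, many of them ATF4 targets, moved in both directions. Mthfd2, a mitochondrial folate dehydrogenase, was at 187, 188 and 188 CPM in the labelled-knockout libraries, against 174, 167 and 168 CPM in the controls, with no overlap. Mthfd2 rose by 0.15 on the log2 scale (SE 0.0385, 95% interval 0.06 to 0.23, adjusted p 0.0312). DESeq2 did not make that call (adjusted p 0.0631), nor did edgeR when any 1 of the 6 libraries was left out (adjusted p 0.0537 without control 2 to 0.126 without labelled-knockout 3). Psat1, the aminotransferase of serine synthesis, was at 339, 349 and 345 CPM in the labelled-knockout libraries, below its 381, 389 and 377 CPM in the controls. Psat1 changed by −0.15 on the log2 scale (SE 0.0392, 95% interval −0.24 to −0.06, adjusted p 0.0299), and the call was lost without labelled-knockout 1 (adjusted p 0.101), 2 (0.0727) or 3 (0.129) or control 1 (0.0968). The enzyme before it in the serine pathway, Phgdh, was at 72.9, 76.6 and 75.6 CPM in the labelled-knockout libraries and at 69.6, 68.0 and 67.2 CPM in the controls, a difference to the other side that did not pass (log2 0.14, interval 0.04 to 0.23, adjusted p 0.0661). Psph, the last enzyme of that pathway, averaged 65.1 ± 2.61 and 61.8 ± 1.59 CPM (adjusted p 0.332). The 3 consecutive enzymes thus held values on both sides of 0.

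Asns, asparagine synthetase, was at 155, 163 and 153 CPM in the labelled-knockout libraries and at 149, 142 and 138 CPM in the controls. The groups did not overlap, but the difference missed the threshold (log2 0.13, interval 0.04 to 0.23, adjusted p 0.0750). Shmt2, the mitochondrial serine hydroxymethyltransferase, averaged 208 ± 1.96 CPM in the labelled-knockout libraries and 216 ± 2.02 CPM in the controls (adjusted p 0.411). Mthfd1l averaged 65.3 ± 6.01 and 68.9 ± 2.37 CPM (log2 −0.08, adjusted p 0.471) and Aldh1l2 361 ± 5.07 and 386 ± 21.2 CPM (log2 −0.09, adjusted p 0.227), both mitochondrial folate enzymes and both in the same order of groups. In the mitochondrial folate route Mthfd2 alone was therefore called, among 4 members.

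ER chaperones were among the most abundant members, and 0 of 14 were called, where 12.3% of all tested genes were. On the authors' deposited FPKM, which are divided by gene length and rounded to whole numbers, the highest member levels were those of Hsp90b1 (mean 299 in labelled-knockout and 324 in control libraries), Calr (263 and 284), Hspa5 (209 and 229), Atf4 (180.0 and 183) and Pdia3 (169 and 181). Hspa5, the gene of the master chaperone BiP, was at 757, 735 and 721 CPM in the labelled-knockout libraries, against 809.5, 786 and 802 CPM in the controls. All labelled-knockout values lay below all control values, and the log2 fold change of −0.12 (interval −0.21 to −0.02) did not pass after adjustment (adjusted p 0.106). Hsp90b1, the gene of GRP94, was at 1215, 1237 and 1182 CPM in the labelled-knockout libraries and at 1298, 1298 and 1312 CPM in the controls (log2 −0.10, interval −0.20 to −0.01, adjusted p 0.155). Hyou1, a large HSP70-like chaperone, was at 119.7, 117 and 117 CPM in the labelled-knockout libraries, against 129.6, 124 and 141 CPM in the controls. The log2 fold change of Hyou1 was −0.16 (interval −0.27 to −0.05, adjusted p 0.0629), and it passed when control 2 was left out (adjusted p 0.0237).

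The summed level of the 14 chaperone genes was lower in every labelled-knockout library. It was 4778, 4747 and 4656 CPM in the labelled-knockout libraries and 5067, 4921 and 5035 CPM in the controls, with no overlap between the groups. The most abundant genes weigh most in such a sum. Sums were also lower without overlap for the sensors, the amino acid and one-carbon enzymes and the ER-associated degradation members. The same held for the further lists of ER folding, ER translocation, ATF4 target and heat shock genes described below. Sums were higher without overlap for the transcription factors and for the CREB3, eIF2 and mitochondrial lists. Yet log2 fold changes were below 0 for 4 of the 6 transcription factors and for 5 of the 6 genes of the CREB3 list. The 1 gene of that list above 0 was Tmbim6, a modulator of the unfolded protein response, at 951 CPM in labelled-knockout and 854 CPM in control libraries. In the eIF2 and mitochondrial lists 9 of 12 and 12 of 14 genes lay above 0. Log2 fold changes were below 0 for 11 of the 14 chaperone genes, against 50.6% of all tested genes, with a median of −0.07. The labelled-knockout libraries were all lower for 5, Hspa5, Hsp90b1, Hyou1, Calr and Pdia6, as they were for 15.8% of all tested genes. DESeq2 and limma-voom also called 0 of the 14, and 3 (21.4%) had an unadjusted p under 0.05 with edgeR, against 27.9% of all tested genes. Of the calcium-binding lectin chaperones, Calr averaged 762 ± 9.92 CPM in the labelled-knockout libraries and 815 ± 32.5 CPM in the controls (log2 −0.10, adjusted p 0.192), and Canx 467 ± 6.89 and 469.7 ± 11.5 CPM (log2 −0.01, adjusted p 0.935). The disulphide isomerases had means of 533 ± 14.7 and 566 ± 16.0 CPM for Pdia3, 204 ± 3.55 and 214 ± 9.51 CPM for Pdia4, and 274 ± 7.60 and 289 ± 8.07 CPM for Pdia6, labelled-knockout libraries before controls. Their log2 fold changes lay between −0.09 and −0.07 (adjusted p 0.223 to 0.362). The co-chaperones Dnajb9 (31.5 ± 2.17 and 30.4 ± 1.30 CPM), Dnajb11 (91.9 ± 2.26 and 95.1 ± 5.83 CPM), Dnajc3 (173 ± 6.04 and 169 ± 4.76 CPM) and Sdf2l1 (12.9 ± 0.305 and 13.5 ± 0.358 CPM) had log2 fold changes between −0.06 and 0.05 (adjusted p 0.575 to 0.676). Creld2, a folding factor, averaged 32.4 ± 1.9999 CPM in the labelled-knockout libraries and 34.8 ± 2.59 CPM in the controls (log2 −0.10, adjusted p 0.375), and Manf, a secreted ER protein, averaged 78.9 ± 1.34 and 78.7 ± 1.52 CPM (adjusted p 0.974). All 14 intervals lay within ±0.32 on the log2 scale.

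The 4 genes of ER-associated degradation, which moves misfolded proteins to the proteasome, also gave 0 calls by edgeR, DESeq2 and limma-voom (0 with an unadjusted p under 0.05). Of all tested genes, edgeR called 12.3%, and 27.9% had an unadjusted p under 0.05, so 0 of 4 says little. Sel1l, the adaptor of the HRD1 ubiquitin ligase, averaged 143 ± 0.993 CPM in the labelled-knockout libraries and 152 ± 1.42 CPM in the controls, with no overlap, a log2 fold change of −0.08 (interval −0.16 to 0.00, adjusted p 0.183). Syvn1, the gene of HRD1 itself, averaged 54.5 ± 2.31 CPM in the labelled-knockout libraries and 57.1 ± 1.33 CPM in the controls (log2 −0.07, adjusted p 0.397). Herpud1, which helps assemble that complex, averaged 81.6 ± 1.99 and 82.4 ± 3.31 CPM (adjusted p 0.895), and Edem1, which takes misfolded glycoproteins to it, 179 ± 2.43 and 180.3 ± 7.99 CPM (adjusted p 0.916).

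**Figure D3:**
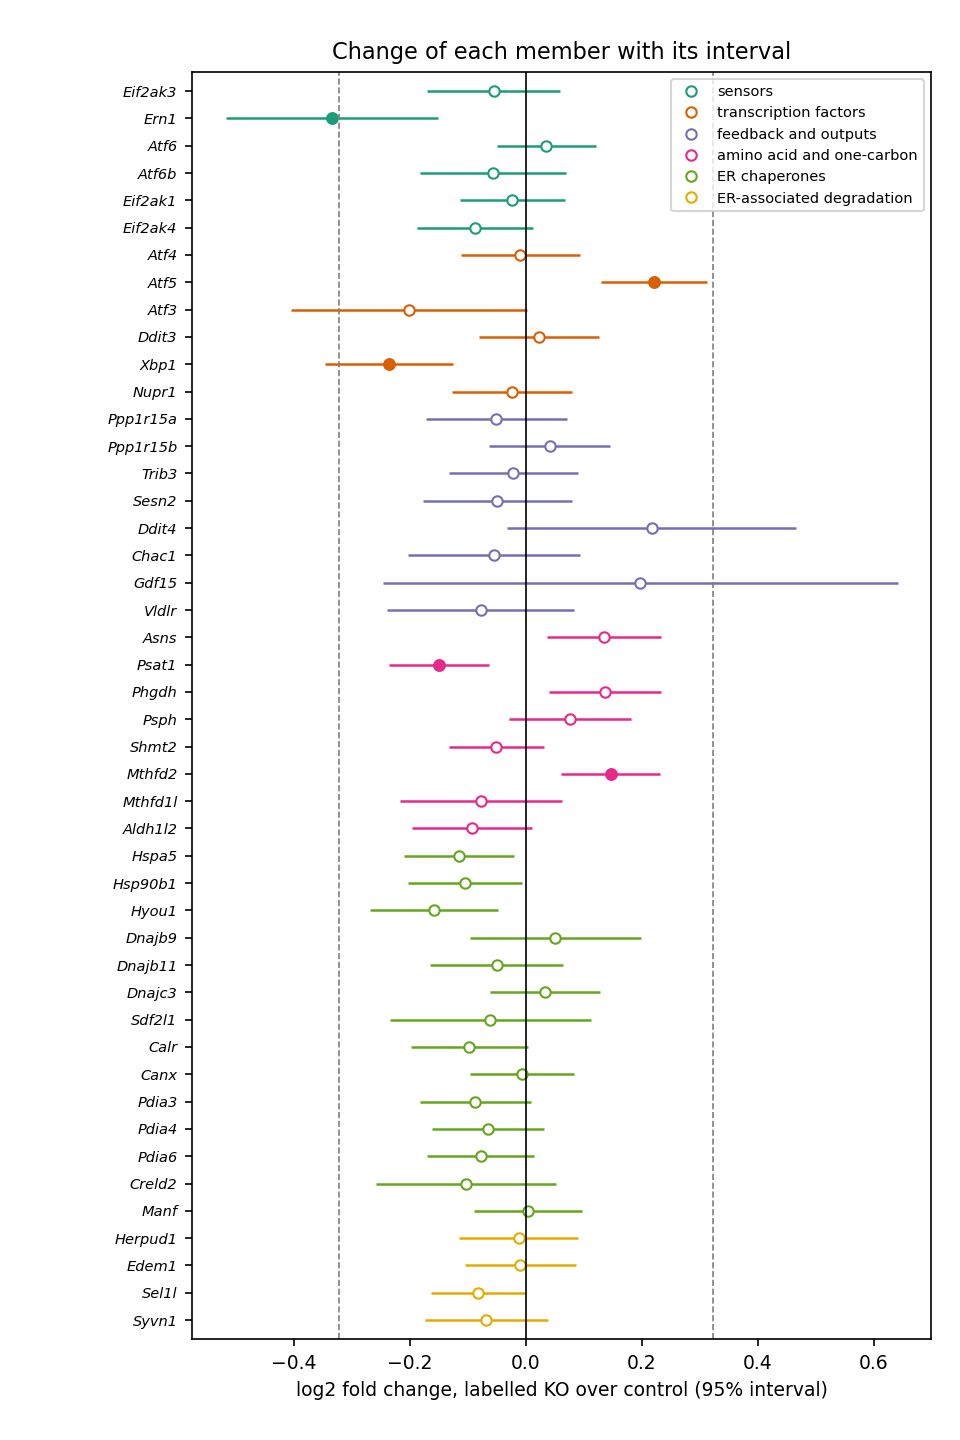
Log2 fold change (labelled knockout over control) with its 95% interval for each member, coloured by role; filled points passed the adjusted p of 0.05 and dashed lines mark ±0.32. The 5 intervals that cross a dashed line are those of Ern1, Atf3, Xbp1, Ddit4 and Gdf15.

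Members with a known stress element in their promoter can be read side by side. Promoter windows from 250 bases before to 50 after the gene start were taken from RefSeq (GRCm38.p6), a later build than the mm9 of the counts, and 41 of the 46 members had at least 1. The ER stress response element, bound by ATF6 and XBP1 together with NF-Y, was searched as CCAAT, any 9 bases and CCACG, on both strands. It stood in 8 members' windows and in 39 of all 32851 windows (0.119%). The sequences below show what these members share. Capitals mark the element, read along the gene's own strand, so that CGTGG to ATTGG is the element on the opposite strand.
Hspa5, chr2:34772015-34772053 (+), starting 65 bases before the gene start: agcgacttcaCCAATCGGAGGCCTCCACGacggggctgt
Hsp90b1, chr10:86705628-86705666 (−): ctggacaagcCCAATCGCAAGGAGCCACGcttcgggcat
Hsp90b1, chr10:86705523-86705561 (−): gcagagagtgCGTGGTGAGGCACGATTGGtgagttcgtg
Dnajc3, chr14:118937817-118937855 (+): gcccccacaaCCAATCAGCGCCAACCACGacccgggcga
Calr, chr8:84847065-84847103 (−): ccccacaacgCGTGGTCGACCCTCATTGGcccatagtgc
Canx, chr11:50325790-50325828 (−): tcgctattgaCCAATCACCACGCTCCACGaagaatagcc
Pdia6, chr12:17266481-17266519 (+): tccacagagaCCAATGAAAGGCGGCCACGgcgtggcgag
Creld2, chr15:88819510-88819548 (+): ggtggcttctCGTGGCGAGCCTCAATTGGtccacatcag
Syvn1, chr19:6046522-6046560 (+): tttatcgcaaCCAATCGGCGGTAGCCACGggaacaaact

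The log2 fold changes of these 8 members ran from −0.12 (Hspa5) to 0.03 (Dnajc3), and 0 were called, where 12.3% of all tested genes were. Of the 8, 7 lay below 0, as did 33 of all 46 members. The related element, searched as ATTGG, any 1 base and CCACG on both strands, shares its CCACG letters with the first. It stood in 2 members, Dnajb11 and Herpud1, and in 0.0365% of all windows. These 2 had log2 fold changes of −0.05 and −0.01.
Dnajb11, chr16:22857842-22857872 (+): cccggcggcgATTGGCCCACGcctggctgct
Herpud1, chr8:94386367-94386397 (+): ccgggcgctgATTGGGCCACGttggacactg

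The amino acid response element that ATF4 binds with a C/EBP partner was searched as TGATG, any 1 base and AA, on both strands. It was found in 7 members and in 3.97% of all windows, so at 8 letters it is far less selective. Capitals mark it, and the lines in which CATCA comes last hold it on the opposite strand.
Asns, chr6:7693215-7693242 (−), starting 23 bases before the gene start: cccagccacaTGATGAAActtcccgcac
Chac1, chr2:119351039-119351066 (+): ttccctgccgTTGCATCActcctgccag
Trib3, chr2:152344029-152344056 (−): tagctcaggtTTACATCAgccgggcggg
Atf3, chr1:191183426-191183453 (−): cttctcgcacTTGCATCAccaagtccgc
Nupr1, chr7:126625563-126625590 (−): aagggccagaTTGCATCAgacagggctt
Vldlr, chr19:27216810-27216837 (+): gcagcaatagTTGCATCAgcgctcctag
Herpud1, chr8:94386307-94386334 (+): ccacggcgggTTGCATCAgcccgcaccc

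Of these 7, Asns had a log2 fold change of 0.13 and the other 6 lay between −0.20 (Atf3) and −0.01 (Herpud1). Calls numbered 0 of the 7, where 12.3% of all tested genes were called. None of the 3 motifs was found for a called member among the 41 members with a window. A called member without a window would give the same result, so this says only that these letters were not found in the windows read.

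Other genes of the same pathways were read from 9 lists of 166 names, of which 162 were matched and 161 tested. In all 10 rose and 8 fell, or 6.21% and 4.97%, again near the 6.91% and 5.44% of all tested genes. Among 25 further ER folding genes, 2 fell, both of the disulphide isomerase family. Txndc5 was at 191, 195 and 194 CPM in the labelled-knockout libraries, against 229, 222 and 226 CPM in the controls (log2 −0.22, adjusted p 0.00439). P4hb, which is also the beta subunit of collagen prolyl hydroxylase, had a log2 fold change of −0.15 (adjusted p 0.0428). The call for P4hb was lost without any library but control 2 (adjusted p 0.0772 without control 3 to 0.168 without labelled-knockout 3). The list had a median of −0.06, and 4 members fell and 1 rose without control 2. Of 25 genes of ER translocation, signal peptide cleavage and N-glycosylation, Sec61a1, the channel subunit, fell (log2 −0.17, adjusted p 0.0190). That call was lost without labelled-knockout 1 (adjusted p 0.0560), 2 (0.0675) or 3 (0.0950) or control 1 (0.0947). Of the 25, 20 had a log2 fold change below 0, against 50.6% of all tested genes. Of 18 further degradation genes, the ubiquitin ligase gene Rnf5 rose (log2 0.28, adjusted p 0.0178), a call lost without labelled-knockout 2 (0.0625) or 3 (0.0761), and 1 other gene fell without labelled-knockout 1.

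With edgeR, 0 genes were called in the 2 short lists of control points upstream of these genes, where 12.3% of all tested genes were. Among 12 genes of eIF2, eIF2B and the kinase PKR, edgeR, DESeq2 and limma-voom called 0. An unadjusted p under 0.05 with edgeR was found for 2 of the 12 (16.7%), against 27.9% of all tested genes. The 2 were Eif2b4 (log2 0.16, adjusted p 0.0526) and Eif2ak2, the gene of PKR. Eif2ak2 had the list's largest log2 fold change, 0.46 (interval 0.14 to 0.79, adjusted p 0.0646). It was at 156, 122 and 198 CPM in the labelled-knockout libraries and at 109, 101 and 135 CPM in the controls, with overlap. In both groups the library numbered 2 was lowest and the one numbered 3 highest. Among 6 genes, of the CREB3 family, the proteases that cleave ATF6 and Tmbim6, edgeR and limma-voom called 0, and DESeq2 called 1. An unadjusted p under 0.05 with edgeR was found for 3 of the 6 (50%), against 27.9% of all tested genes. The medians of both lists were within 0.08 of 0 on the log2 scale. Without control 2, 1 gene of the CREB3 list rose and 1 fell, and without labelled-knockout 2 or control 3, 1 gene of the eIF2 list rose.

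Of further ATF4 and CHOP targets, 4 fell and 1 rose. Among the 28 tested, Sqstm1 (log2 −0.28, adjusted p 0.00225), the alanine aminotransferase gene Gpt2 (−0.23, adjusted p 0.00888) and the amino acid transporter genes Slc7a5 (−0.18, adjusted p 0.0304) and Slc7a1 (−0.17, adjusted p 0.0317) fell, and the aspartate aminotransferase gene Got1 rose (0.18, adjusted p 0.0328). Sqstm1, the autophagy receptor p62, was at 346, 325 and 332 CPM in the labelled-knockout libraries, against 405, 399.5 and 414 CPM in the controls. The targets that fell numbered 2 without labelled-knockout 2, labelled-knockout 3, control 1 or control 3, 6 without control 2, and 0 rose without labelled-knockout 1, labelled-knockout 3, control 1 or control 3. Among 20 cytoplasmic aminoacyl-tRNA synthetases, 3 rose. Wars was at 135, 131 and 133 CPM in the labelled-knockout libraries, against 112, 117 and 110.0 CPM in the controls (log2 0.23, adjusted p 0.00591), and Gars (0.16, adjusted p 0.0252) and Farsb (0.17, adjusted p 0.0275) also rose, the last not with DESeq2 (adjusted p 0.0629). The list median was −0.02, and 1 synthetase rose without any single library other than control 2.

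Mitochondrial chaperones and proteases held the largest share of rises among these lists, with 5 of 14 (35.7%, against 6.91% of all tested genes) and a median of 0.13. Hspe1, the co-chaperonin HSP10, was at 41.3, 43.2 and 43.2 CPM in the labelled-knockout libraries and at 34.2, 32.0 and 32.2 CPM in the controls (log2 0.38, adjusted p 0.00179). Its partner Hspd1, the chaperonin HSP60, was at 555, 595 and 593 CPM in the labelled-knockout libraries and at 489, 521 and 463 CPM in the controls (log2 0.24, adjusted p 0.0132). The protease gene Afg3l2 (0.28, adjusted p 0.00828), the nucleotide exchange factor gene Grpel1 (0.28, adjusted p 0.0130) and the co-chaperone gene Dnaja3 (0.19, adjusted p 0.0304) also rose. The members that rose numbered 2 without labelled-knockout 2, 1 without labelled-knockout 3 and 3 without control 1. Lonp1, the matrix protease, had a log2 fold change of −0.00. Of 13 cytosolic heat shock genes Cryab, the small heat shock protein alphaB-crystallin, fell (log2 −0.44, adjusted p 0.000708). It was at 44.8, 42.2 and 43.7 CPM in the labelled-knockout libraries, against 60.4, 55.4 and 61.5 CPM in the controls, and 2 of the 13 fell without labelled-knockout 1. Whether ER and mitochondrial folding genes differ in their change was not tested.

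**Figure D4:**
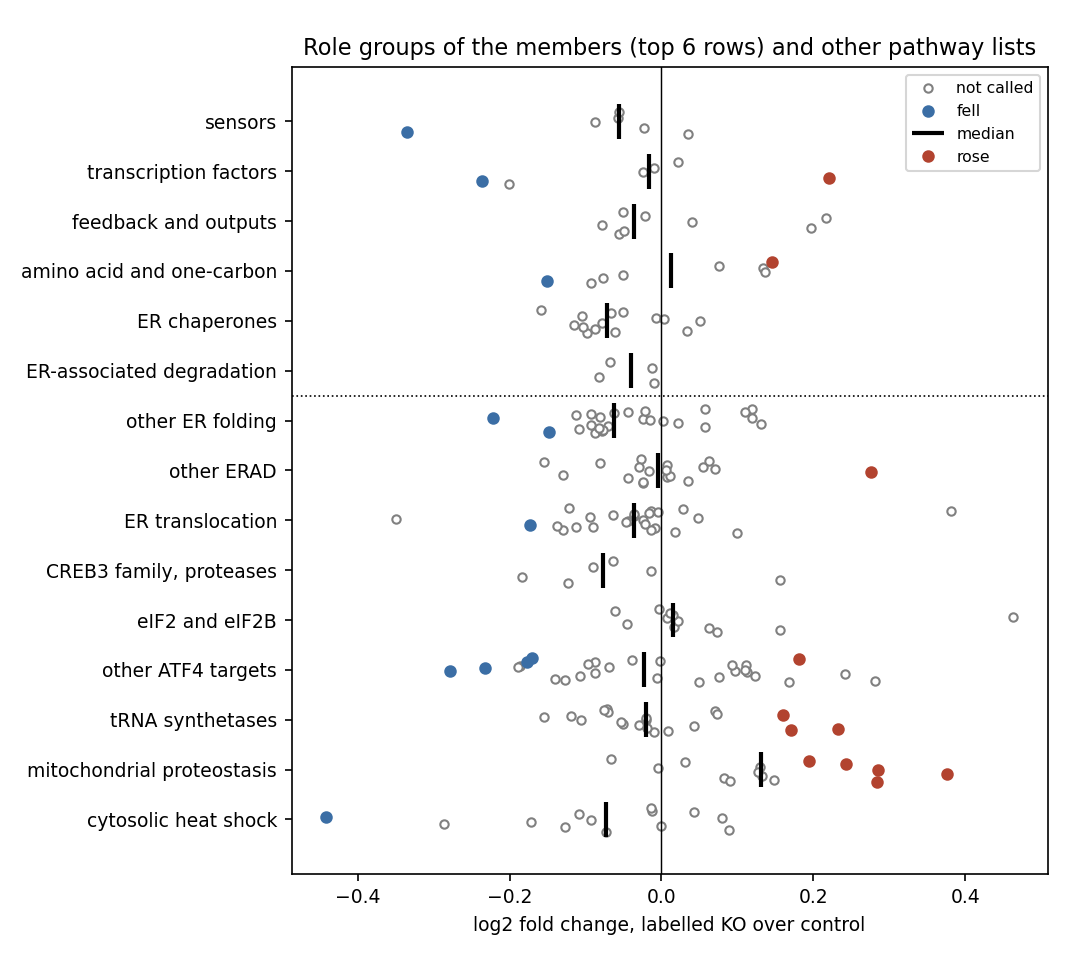
Log2 fold change (labelled knockout over control) of each tested gene in the 6 role groups of the members (above the dotted line) and in 9 other lists of the same pathways; filled points passed the adjusted p of 0.05 and black bars are medians. Medians lie between −0.08 and 0.02 in every row except mitochondrial proteostasis, at 0.13.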

How the data were processed

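RNA sequencing libraries (stranded, poly(A)-selected, 3 per group) were made from the cells, per the labels' protocols. The submitters' processing notes name Novoalign 2.8, Picard, DESeq2 and the mm9 build, with no roles; the read counter, its strand setting and the annotation are not stated in any source at hand. The authors deposited raw counts per gene and, beside them, FPKM rounded to whole numbers, which were handled as a score of level per length and entered no test. All 13962 rows reach at least 10 counts in some library, and 7 rows carry no gene name.

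Counts were tested with edgeR 4.0.16 (R 4.3.3): TMM scaling, its filter on low counts by group (770 genes set aside), the quasi-likelihood test of the labelled-knockout against the control libraries, and Benjamini-Hochberg adjustment over 13192 genes, called under 0.05. Standard errors were taken from the fold change and its F statistic, and CPM uses the TMM-scaled library sizes. DESeq2 1.42.0, limma-voom (limma 3.58.1), other scalings and filters, a replicate block and leaving out each library were alternatives. The scripts were tested on simulated data. The members and all gene lists were chosen with earlier results of these data known. Named were all called members, 9 further members shown in all libraries whether or not called (Atf4, Ddit3, Xbp1, Atf6, Ern1, Eif2ak3, Hspa5, Asns and Trib3, some of which were also called), other members by group means, and called genes of the further lists (up to 5 a list). Values shown in all libraries beyond these, for Phgdh, Hsp90b1, Hyou1, Ddit4, Gdf15 and Eif2ak2, were chosen after they were seen. So were the fold changes of Lonp1, Eif2b4, Lpl and Cfd. Of the 166 further names, Derl3, Vimp, Creb3l3 and Crebrf had no match and Cbs did not pass the filter. In GENCODE M21, 15 of the 46 members share exonic bases with a gene on the opposite strand. Promoter sequences are RefSeq's, on GRCm38.p6.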

Additional observations from a re-analysis of the deposited data

How the results depend on the processing

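Over 13 alternatives and the 46 members, 577 of 598 values kept their side of the threshold, 20 lost it and 1 passed it. The fold change had the other sign in 18 values, all of 11 members without a call whose log2 fold changes were at most 0.05 in size. These were Atf4, Ddit3, Nupr1, Ppp1r15a, Trib3, Sesn2, Dnajb11, Canx, Manf, Herpud1 and Edem1, and 17 of the 18 came from leaving out a library (Manf also with library size alone). Members that rose numbered 1 with DESeq2 and 1 with the replicate block, where the count was 2, and Mthfd2 was the one lost (adjusted p 0.0631 and 0.0569). Leaving out 1 library at a time gave 0 to 1 members that rose and 0 to 3 that fell, 2 to 14 other pathway genes that rose and 4 to 13 that fell, and 332 to 1025 of all tested genes that rose and 289 to 870 that fell. The highest counts of other pathway genes and of all genes were those without control 2. Library size alone in place of TMM moved the median of all genes to −0.018 on the log2 scale and changed no member's call. The replicate block left 1 member that rose and 2 that fell and lost Psat1 (adjusted p 0.0574) and, outside the members, P4hb (adjusted p 0.0861), while 1 gene of the eIF2 list rose. Deviations of same-numbered libraries correlated at −0.0396, 0.191 and 0.0308 for numbers 1, 2 and 3. The correlation passed 0.1 for number 2 alone, and the main test did not pair the libraries by number. Labelled-knockout 2 and control 2 also lay together on the second principal component, a summary axis of differences between libraries. They were at −12.3 and −12.9, and the others at −0.974 to 10.2. With the replicate block 1032 of all genes rose and 777 fell, where 911 and 718 did without it. Whether a number marks a shared culture or batch was not tested. The lowest count of a member was 50, of Gdf15; what counting error and the spread between libraries each add to its interval was not tested.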
